A study of Homo sapiens with 10 samples.

Results

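The comparison described here is the late step of a time course, from 48 h to 96 h of continuous exposure to the compound WA-68, read across all genes. It rests on 4 of the 10 libraries of the study, the pair labelled 96 h against the pair labelled 48 h. The libraries were assigned by those labels, and the comparison was chosen with earlier results of these data known. The cells, kept in serum-containing medium, were of the established human line HS-SY-II, derived from a synovial sarcoma, and were exposed to 100 nM WA-68, a bifunctional degrader (PROTAC) directed at BRD9. The other groups were 12 h and 24 h of the same dose and a DMSO vehicle control. Each of the 5 groups held 2 cultures labelled as biological replicates. When the DMSO cultures were harvested is not stated in the labels, and neither 48 h nor 96 h has a vehicle control labelled with the same time. Time in culture and exposure to WA-68 therefore cannot be told apart in this comparison. All cultures came from 1 line, so p-values measure the spread between cultures of that line.

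Synovial sarcoma is driven by a fusion of SS18, a subunit of BAF chromatin remodelling complexes, with an SSX gene. BRD9 is a bromodomain protein found in the non-canonical form of the complex (ncBAF), together with BICRA or BICRAL, and synovial sarcoma cells are known to depend on it. A PROTAC joins a ligand of its target to a ligand of an E3 ubiquitin ligase, so that the target protein is ubiquitinated and degraded while its mRNA need not change. Protein levels were not analysed here. SS18 and SSX1 counts cannot be separated from those of the fusion, since a gene count adds reads from all transcripts that carry its exons.

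Totals of counts assigned to genes were 8680831 and 7982460 in replicates 1 and 2 of 48 h, and 10401147 and 7349744 at 96 h, within a range of 7349744 to 13200051 over all 10 libraries. The test covered 16382 of 63140 gene identifiers, those with enough counts. Replicate 2 of 96 h stood apart from replicate 1, as did replicate 2 of DMSO from its partner. The share of mitochondrially encoded transcripts was 10.9% in that 96 h library, against 7.38% in its replicate 1 and 6.79% to 8.75% in the other 8 libraries. Across 15694 genes, which are not independent, GC-rich transcripts tended to be higher in replicate 2 than in replicate 1 of 96 h (Spearman correlation 0.289), lower in replicate 2 of 48 h (-0.292), and higher in replicate 2 of DMSO (0.571). Replicates differed by a median of 0.18 on the log2 scale at 96 h, 0.14 at 48 h, 0.12 at both earlier times and 0.20 in DMSO. The 6 markers of the line that were checked (TLE1, SS18, SSX1, BCL2, SIM2 and TWIST1) were all measured, with summed levels of 869.5 to 919.1 CPM in the 4 libraries (levels here are counts divided by TMM-scaled library size and expressed as CPM). Of 9 leukocyte markers 0 were high enough to test and 6 were at 0, with sums of 0.0934 to 0.369 CPM. Endothelial markers held 1 tested gene of 7 (ERG), with KDR, PECAM1, TEK and VWF at 0. Skeletal muscle markers held 2 tested genes of 7, with CKM, MYH8, MYOD1 and MYOG at 0. Fibroblast markers held 7 tested genes of 8, led by LUM at 1592 and 1639 CPM at 48 h and 1681 and 1451 CPM at 96 h, with FAP at 0 and sums of 2087 to 2328 CPM.

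Between 48 h and 96 h, edgeR's quasi-likelihood test called 6 genes. SCD, RRAGD and NEAT1 fell and CDH23, AMOTL2 and CYFIP2 rose, at a Benjamini-Hochberg adjusted p under 0.05. Apart from SCD they share 1 edgeR adjusted p of 0.0456, set by the largest p among them, that of CYFIP2. Their calls, kept or lost, are therefore not independent of one another. The 3 genes called higher are 0.0183% of those tested and the 3 called lower are 0.0183%. The median log2 fold change over all genes tested was 0.00, with a median standard error (SE) of 0.14, and the smallest called change was 0.54 on the log2 scale. At an unadjusted p under 0.05, 756 genes were higher and 751 lower. Both 96 h libraries lay above both 48 h libraries in 3313 genes (20.2%) and below both in 3185 (19.4%). SCD kept its call under all 23 alternatives run, and the other 5 calls were lost under some of them, as given for each gene. Without replicate 2 of 96 h, SCD alone of the 6 kept its call.

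Promoter sequence is shown for 2 called genes, chosen after the motif search because a window of each held a match to a motif of a factor known to act on that gene. SCD is a classical target of the sterol regulatory element-binding proteins, which act together with the CCAAT-binding factor NF-Y, and AMOTL2 is a known target of YAP acting through TEAD factors. Each line gives the 250 bases before a RefSeq transcript start in GRCh38.p14, 5′ to 3′ along the gene, with the matches in capitals. The first is chr10:100346983-100347232 (+) and the second is chr3:134374448-134374697 (-), the more downstream of 2 AMOTL2 starts listed.
SCD: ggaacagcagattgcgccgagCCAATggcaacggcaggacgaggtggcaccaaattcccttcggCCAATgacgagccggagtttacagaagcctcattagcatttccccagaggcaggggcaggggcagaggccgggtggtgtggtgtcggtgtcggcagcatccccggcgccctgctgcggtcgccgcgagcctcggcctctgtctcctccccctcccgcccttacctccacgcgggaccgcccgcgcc
AMOTL2: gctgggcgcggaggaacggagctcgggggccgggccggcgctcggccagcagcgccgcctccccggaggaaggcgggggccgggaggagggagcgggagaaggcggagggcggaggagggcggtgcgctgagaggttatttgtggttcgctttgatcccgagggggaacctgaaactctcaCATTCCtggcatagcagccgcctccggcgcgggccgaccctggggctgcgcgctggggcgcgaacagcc
The SCD sequence holds CCAAT at -229 and -186 from the start, a match present on either strand in 34.6% of 35116 promoter windows of 300 bases. Its 300-base window held 0 matches to TCACCCCAC, a sterol regulatory element, or to the looser TCACNCCAC, which 0.43% and 1.13% of all windows hold. The AMOTL2 sequence holds CATTCC at -69, which is the TEAD motif GGAATG read on the other strand, and 14.0% of the windows hold that motif. The window of the other AMOTL2 start, which is not shown, held 0 matches to it. The letters CACGTG, an E-box bound by TFEB and MYC family factors, were in none of the windows of SCD, AMOTL2, CDH23 or CYFIP2, against 7.26% of all windows. No window was available for RRAGD or NEAT1, so neither was searched for any motif. A match describes these letters and says nothing of binding.

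SCD (ENSG00000099194, GRCh38 chromosome 10, 100347124 to 100364834, plus strand) encodes stearoyl-CoA desaturase, the enzyme that makes monounsaturated fatty acids such as oleate from saturated ones. Its level was 2215 and 1916 CPM in the 48 h libraries and 1241 and 1162 CPM in the 96 h libraries. The groups did not overlap, and the 96 h values were near the lowest of the series. SCD fell 1.72-fold, from 2065 ± 211 to 1201 ± 55.9 CPM (SD, n = 2 each; log2 fold change -0.78, SE 0.094, 95% interval -0.98 to -0.59, edgeR adjusted p = 0.000317). Earlier in the course its level was 2307 and 2216 CPM in DMSO, 1409 and 1127 CPM at 12 h, and 1656 and 1663 CPM at 24 h. It was therefore low at 12 h, higher at 48 h, and low again at 96 h. The call held without each of the 10 libraries in turn and under all 13 other settings, with log2 fold changes from -0.89 to -0.67 over these alternatives. OLMALINC, a long non-coding RNA gene 8679 bases from SCD on the same strand and named after its values were seen, stood at 118 and 120 CPM at 48 h and 90.2 and 98.0 CPM at 96 h. Its difference did not pass the test (log2 fold change -0.35, SE 0.091, edgeR adjusted p = 0.249).

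Other genes of fatty acid synthesis gave lower values at 96 h without passing the test. Of 9 tested members of that list, SCD was called lower and 0 were called higher. With SCD counted, 9 of 9 had a log2 fold change below 0, and both 96 h libraries were below both 48 h libraries in 8. That order of the libraries held in 19.4% of all genes tested. The list's median, also with SCD counted, was -0.25 on the log2 scale, against 0.00 over all genes tested. FADS2, the delta-6 desaturase of polyunsaturated fatty acids, stood at 391 and 348 CPM at 48 h and 291 and 314 CPM at 96 h (log2 fold change -0.29, edgeR adjusted p = 0.381). FASN, the fatty acid synthase, stood at 1348 and 1191 CPM and then 1049 and 1116 CPM (-0.23, adjusted p = 0.499). ELOVL6, an elongase of saturated fatty acids, differed by -0.39 (adjusted p = 0.381), FADS1 by -0.25 (0.412) and SREBF1, which encodes the transcription factor SREBP-1, by -0.25 (0.494). ACLY, which supplies cytosolic acetyl-CoA, stood at means of 485 and 478 CPM. Without replicate 1 of 48 h the values were -0.14 for FASN and -0.23 for ELOVL6, and without replicate 2 of 96 h that of SREBF1 was -0.16. With an offset for GC content, 3 of the 9 were called lower, SCD among them, against 31 of all 16382 genes tested.

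The cholesterol list, whose genes answer largely to SREBP-2, had 23 tested members, none called by edgeR. Unadjusted, 7 were lower at p under 0.05 and 0 higher, against 751 lower and 756 higher of all 16382 genes tested. Both 96 h libraries were below both 48 h libraries in 9, against 19.4% of all genes tested. The median was -0.15 (-0.08 without replicate 2 of 96 h). CYP51A1, the lanosterol demethylase, stood at 14.4 and 13.7 CPM at 48 h and 9.71 and 6.86 CPM at 96 h (log2 fold change -0.72, SE 0.187, edgeR adjusted p = 0.229). INSIG1, which retains the SREBP escort complex in the endoplasmic reticulum, stood at 294 and 287 CPM and then 243 and 217 CPM (-0.34, adjusted p = 0.304). DESeq2 gave 18 members no adjusted p and called 1 lower, and called 0 with independent filtering off.

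**Figure D1:**
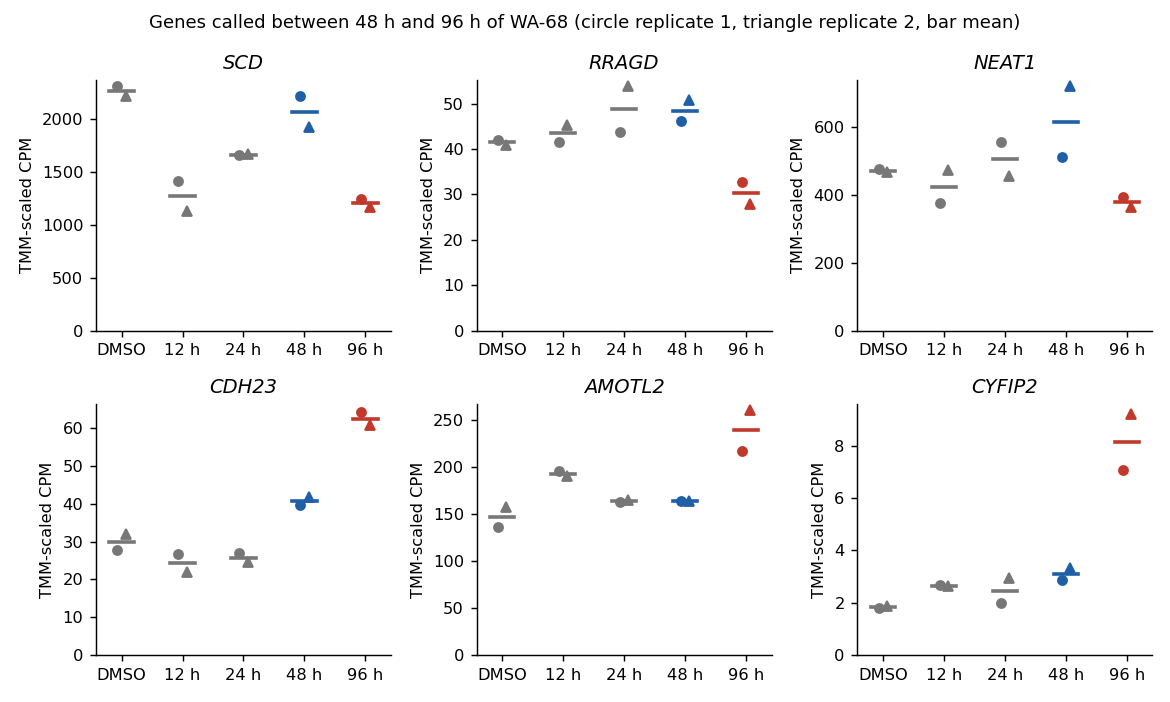
TMM-scaled CPM (vertical axis, from 0) of the 6 genes called between 48 h and 96 h, for each library of DMSO and of 12 h, 24 h, 48 h and 96 h of WA-68 (horizontal axis); circles are replicate 1, triangles replicate 2 and bars group means of 2. In all 6 panels the 96 h libraries (red) lie wholly on one side of the 48 h libraries (blue), and SCD at 96 h is near its level at 12 h.

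RRAGD (ENSG00000025039, chromosome 6, 89364636 to 89412270, minus strand) encodes RagD, one of the Rag GTPases that bring mTORC1 to the lysosome when amino acids are present. It stood at 46.1 and 50.8 CPM at 48 h and at 32.7 and 27.8 CPM at 96 h. The 96 h libraries were the lowest of all 10, since the other 8 ran from 40.9 to 54.0 CPM. RRAGD fell 1.59-fold, from 48.5 ± 3.33 to 30.3 ± 3.42 CPM (SD, n = 2 each; log2 fold change -0.67, SE 0.120, 95% interval -0.92 to -0.42, edgeR adjusted p = 0.0456). The call was lost without replicates 1 or 2 of 12 h (adjusted p = 0.0811 and 0.081), replicates 1 or 2 of 48 h (0.164 and 0.765) or replicate 2 of 96 h (0.3).

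Of the 12 tested mTORC1 nutrient regulators, RRAGD alone was called. At an unadjusted p under 0.05, 5 were lower and 0 higher, against 751 and 756 of all 16382 genes tested. The list's median was -0.08 (-0.16 without replicate 1 of 48 h and -0.25 without replicate 1 of 96 h). DDIT4, a stress-induced inhibitor of mTORC1, had the next smallest p of the list, at 21.4 and 16.2 CPM at 48 h and 11.3 and 10.8 CPM at 96 h (log2 fold change -0.77, SE 0.180, edgeR adjusted p = 0.202). SESN3, a sestrin that restrains mTORC1, stood at 144 and 156 CPM and then 122 and 102 CPM (-0.42, adjusted p = 0.202). FNIP1 and FNIP2, partners of folliculin in the control of RagC and RagD, differed by -0.29 and -0.24 (adjusted p = 0.381 and 0.496). The folliculin gene FLCN itself differed by -0.12 (0.764), and TXNIP, SESN1 and SESN2 gave 0.13, 0.01 and 0.07. The list thus holds differences of both signs, and both activators and inhibitors of mTORC1.

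NEAT1 (ENSG00000245532, chromosome 11, 65422774 to 65445540, plus strand) is a long non-coding RNA that forms the scaffold of nuclear paraspeckles. Its level was 510 and 721 CPM at 48 h and 394 and 362 CPM at 96 h. Replicate 2 of 48 h was the highest library of the series, where the other groups ran from 375 to 555 CPM before 48 h. NEAT1 fell 1.63-fold, from 615 ± 149 to 378 ± 22.3 CPM (SD, n = 2 each; log2 fold change -0.70, SE 0.127, 95% interval -0.96 to -0.44, edgeR adjusted p = 0.0456). Without replicate 2 of 48 h the log2 fold change was -0.44 and the call was lost (adjusted p = 0.967). It was also lost without replicates 1 or 2 of 12 h (0.0704 and 0.0666), without replicate 2 of 96 h (0.218), and by DESeq2 without independent filtering (0.283). MALAT1, a nuclear long non-coding RNA of speckles that lies 52148 bases from NEAT1, had the next smallest p of all genes that were not called. It stood at 12227 and 12825 CPM at 48 h and 9454 and 9230 CPM at 96 h (log2 fold change -0.42, SE 0.081, edgeR adjusted p = 0.0636). These transcripts belong to a list of 7 tested transcripts retained in the nucleus or sensitive to RNA quality, of which NEAT1 was called lower. Unadjusted, 3 were lower and 0 higher, against 751 and 756 of all 16382 genes tested. The list's median was -0.16. That median was -0.28 without replicate 1 of 48 h, -0.10 without its replicate 2 and -0.10 without replicate 2 of 96 h.

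CDH23 (ENSG00000107736, chromosome 10, 71396934 to 71815947, plus strand) encodes cadherin-23, a long adhesion molecule best known from the tip links of sensory hair cells. It stood at 39.8 and 41.9 CPM at 48 h and at 64.3 and 60.9 CPM at 96 h, while the 6 earlier libraries ran from 21.9 to 32.0 CPM. Its levels were thus highest at 96 h, next at 48 h, and lower in the other groups. The DMSO libraries (27.8 and 32.0 CPM) lay above those of 12 h (26.8 and 21.9 CPM) and 24 h (26.9 and 24.7 CPM), which overlapped. CDH23 rose 1.54-fold, from 40.9 ± 1.55 to 62.6 ± 2.45 CPM (SD, n = 2 each; log2 fold change 0.62, SE 0.111, 95% interval 0.39 to 0.85, edgeR adjusted p = 0.0456). The call held without either DMSO library or replicate 1 of 96 h. It was lost without replicates 1 or 2 of 12 h (adjusted p = 0.0774 and 0.0725), of 24 h (0.0693 and 0.0643) or of 48 h (0.372 and 0.536), and without replicate 2 of 96 h (0.0675). The strand setting of the counting was not stated in the labels or notes. Genes annotated on the opposite strand within CDH23 held 0 to 6 counts over all libraries, and PSAP, which lies 351 bases away on that strand, held 43883.

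AMOTL2 (ENSG00000114019, chromosome 3, 134355874 to 134375479, minus strand) encodes angiomotin-like 2, which binds and restrains YAP at cell junctions and is itself induced by YAP. It stood at 164 and 164 CPM at 48 h and at 217 and 261 CPM at 96 h. Values before 48 h ran from 136 to 195 CPM, so both 96 h libraries were above the other 8. AMOTL2 rose 1.46-fold, from 164 ± 0.159 to 239 ± 30.7 CPM (SD, n = 2 each; log2 fold change 0.54, SE 0.099, 95% interval 0.34 to 0.75, edgeR adjusted p = 0.0456). The call was lost without replicates 1 or 2 of 12 h (adjusted p = 0.117 and 0.113), of 24 h (0.0844 and 0.0816) or of 48 h (0.33 and 0.704), and without replicate 2 of 96 h (0.373).

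In the list of 15 tested YAP and serum response targets AMOTL2 was called higher and 0 were called lower. At an unadjusted p under 0.05, 8 were higher and 0 lower, against 756 and 751 of all 16382 genes tested. Both 96 h libraries lay above both 48 h libraries in 11 and below in 1, against 20.2% and 19.4% of all genes tested. The list's median was 0.30. CCN1, a matricellular protein and standard YAP target, stood at 18.6 and 19.7 CPM at 48 h and 26.3 and 31.9 CPM at 96 h (log2 fold change 0.60, SE 0.138, edgeR adjusted p = 0.202). CCN2, its relative, stood at 6.11 and 4.55 CPM and then 8.40 and 8.68 CPM (0.67, adjusted p = 0.36). MYL9, a myosin light chain controlled by serum response factor, stood at 43.7 and 35.4 CPM and then 50.8 and 71.9 CPM (0.62, adjusted p = 0.202, and 0.36 without replicate 2 of 96 h, adjusted p = 0.78). TEAD1, a DNA-binding partner of YAP, stood at 143 and 147 CPM and then 176 and 182 CPM (0.30, adjusted p = 0.306). ANKRD1, another standard target, had the opposite sign, at 2.77 and 1.60 CPM and then 1.40 and 1.96 CPM (-0.43, adjusted p = 0.737, and 0.03 without replicate 1 of 48 h), as did TAGLN at -0.35 (0.713). DESeq2 gave 14 of the 15 no adjusted p, and with independent filtering off it called AMOTL2 alone. limma-voom called 0 members and the GC offset called 4 higher, against 30 of all 16382 genes tested.

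CYFIP2 (ENSG00000055163, chromosome 5, 157266079 to 157395595, plus strand) encodes a subunit of the WAVE complex, which drives branched actin assembly, and is known for its role in neurons. It held 25 and 27 counts in the 48 h libraries and 76 and 66 in the 96 h libraries, or 2.88 and 3.32 CPM and then 7.10 and 9.24 CPM. It ran from 1.78 to 2.93 CPM before 48 h, so the 96 h libraries were the highest of the series. CYFIP2 rose 2.59-fold, from 3.10 ± 0.311 to 8.17 ± 1.51 CPM (SD, n = 2 each; log2 fold change 1.37, SE 0.255, 95% interval 0.85 to 1.90, edgeR adjusted p = 0.0456). The call was lost without replicates 1 or 2 of 12 h (adjusted p = 0.0811 and 0.081), of 24 h (0.0559 and 0.0613) or of 48 h (0.372 and 0.536), without replicate 2 of 96 h (0.3), and by DESeq2 without independent filtering (0.194). Genes annotated within it on the opposite strand held 0 to 5 counts over all libraries. CYFIP1, the paralog in the same complex position, stood at 71.9 and 67.8 CPM at 48 h and 66.9 and 73.1 CPM at 96 h (log2 fold change 0.00, 95% interval -0.20 to 0.19, adjusted p = 0.997). Of 16 tested neuronal and ion channel genes CYFIP2 alone was called, and the list's median was 0.02 (-0.04 without replicate 2 of 48 h and 0.10 without replicate 1 of 96 h).

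**Figure D2:**
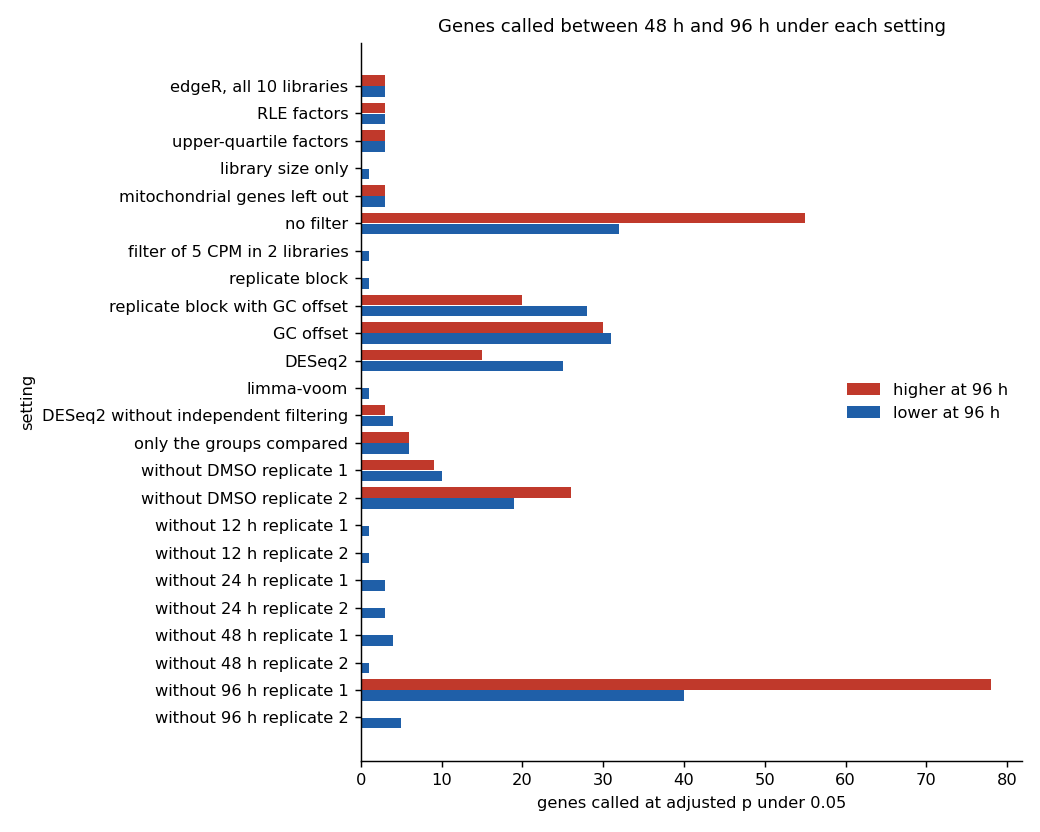
Genes called between 48 h and 96 h (horizontal axis, number at adjusted p under 0.05) under each way of fitting (vertical axis); red bars are higher and blue bars lower at 96 h. The counts run from 0 higher and 1 lower, as without replicate 2 of 48 h, to 78 higher and 40 lower when replicate 1 of 96 h was left out.

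The number of calls depended on the fit. With library size alone as the scaling, with a stricter filter of 5 CPM in 2 libraries, with limma-voom, or with a term for replicate number, SCD alone was called. The other 5 genes then had adjusted p-values of 0.0532 to 0.084. DESeq2 gave an adjusted p to 820 of the genes after its independent filtering, and called 15 of them higher (1.83%) and 25 lower (3.05%). With that filtering off it called 3 of 16382 higher (0.0183%) and 4 lower (0.0244%). An offset for each library's trend with GC content gave 30 higher (0.183%) and 31 lower (0.189%). Without replicate 1 of 96 h the calls came to 78 higher and 40 lower, and they included 12 of the 13 mitochondrially encoded transcripts. Without replicate 2 of 96 h they came to 0 higher and 5 lower, the 5 being MT-ND2, SCD, MALAT1, MT-ND4 and EEF1A1.

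For the mitochondrial genome, which encodes 13 subunits of the respiratory chain, the list's median differed from 48 h in opposite directions in the 2 libraries of 96 h. Not every member did so, since both 96 h libraries lay below both 48 h libraries in 2 of the 13, MT-ND2 among them. The list's median was 0.12 on the log2 scale with both libraries, 0.41 with replicate 2 alone and -0.23 with replicate 1 alone. MT-ATP6, a subunit of ATP synthase, stood at 7522 and 7467 CPM at 48 h and at 7142 and 12032 CPM at 96 h (log2 fold change 0.36, SE 0.130, edgeR adjusted p = 0.44). MT-ND2, a subunit of complex I, stood at 10741 and 10308 CPM and then 6643 and 9933 CPM (-0.34, SE 0.109, adjusted p = 0.36). None of the 13 was called in either direction, with 2 higher and 2 lower at an unadjusted p under 0.05 and 0 called by DESeq2 or limma-voom. Of 30 tested nuclear genes of the respiratory chain 0 were called, with 0 higher and 2 lower unadjusted.

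Cytosolic ribosomal proteins, which build the 40S and 60S subunits, had mostly small negative differences. Of 62 tested genes edgeR called 0, while 33 were lower and 0 higher at an unadjusted p under 0.05, and 56 had a log2 fold change below 0. Of all 16382 genes tested, 751 were lower and 756 higher at that threshold, and 8132 had a log2 fold change below 0. Both 96 h libraries lay below both 48 h libraries in 41 of the 62, against 19.4% of all genes tested. The median was -0.20 (-0.13 without replicate 1 of 96 h and -0.26 without replicate 2). In the libraries themselves the list's median, relative to its 48 h mean, was 0.05 and -0.05 at 48 h and -0.26 and -0.12 at 96 h. It was 0.34 and 0.31 in DMSO, 0.19 and 0.19 at 12 h, and 0.01 and 0.05 at 24 h. RPS18 stood at 802 and 756 CPM at 48 h and 594 and 604 CPM at 96 h (log2 fold change -0.38, SE 0.079, edgeR adjusted p = 0.117). RPS13 gave -0.39 and RPL13A -0.33 (both adjusted p = 0.202), and EEF1A1, the elongation factor that carries aminoacyl-tRNA, gave -0.30 (0.202). DESeq2 gave 5 of the 62 no adjusted p and called 14 lower, and it called 1 lower with its independent filtering off. limma-voom called 0 and the GC offset gave 12. Over all genes, DESeq2 called 25 lower of the 820 given an adjusted p, and the GC offset called 31 lower of 16382. Many of these genes have processed pseudogenes of near-identical sequence, and the sources used here do not say how multiply mapped reads were counted.

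**Figure D3:**
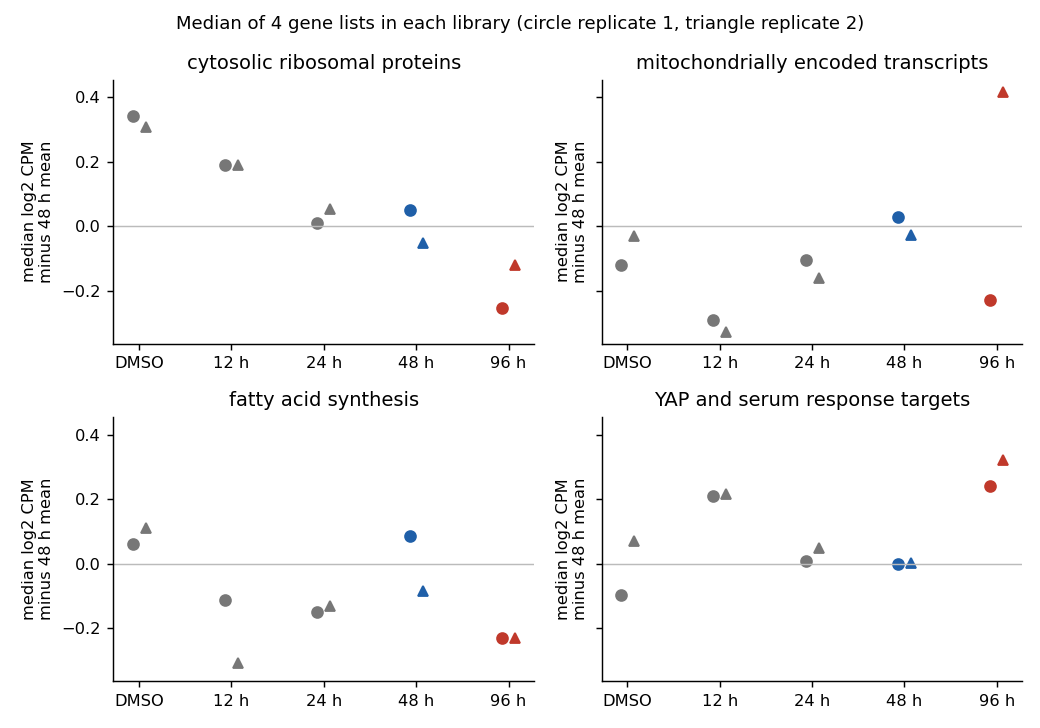
Median log2 CPM of 4 gene lists in each library, minus each gene's mean over the 48 h libraries (vertical axis), against group (horizontal axis); circles are replicate 1 and triangles replicate 2. For mitochondrially encoded transcripts the 96 h libraries lie on opposite sides of 0, at -0.23 and 0.42, while for the other 3 lists they lie on the same side.

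MYC (ENSG00000136997), a transcription factor that controls ribosome production, stood at 150 and 122 CPM at 48 h and 110 and 142 CPM at 96 h. The groups overlapped and the difference did not pass the test (log2 fold change -0.12, 95% interval -0.37 to 0.13, edgeR adjusted p = 0.777). The list of MYC-related and ribosome biogenesis genes had 28 tested members, 0 called, 1 lower and 0 higher unadjusted, and a median of -0.02. That median was 0.04 without replicate 1 of 48 h and -0.06 without its replicate 2, so its sign depended on the library. For MYC itself the log2 fold change ran from -0.31 without replicate 2 of 96 h to 0.06 without replicate 1. A non-coding gene that was strongly lower by 24 h, PCAT14, likewise stayed within its spread, at 8.87 and 10.1 CPM at 48 h and 9.34 and 7.42 CPM at 96 h (log2 fold change -0.15, 95% interval -0.52 to 0.22, adjusted p = 0.814). Its DMSO level was 57.8 and 59.9 CPM. These intervals bound the late step of MYC and PCAT14 but do not show that it was 0.

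Genes of the cell division cycle had more positive than negative differences, 31 of 36 positive in the G1/S list and 23 of 32 in the G2/M list, and edgeR called 0 of them. Of 36 tested G1/S and DNA replication genes 4 were higher and 0 lower at an unadjusted p under 0.05, and both 96 h libraries lay above both 48 h libraries in 21 and below in 1, with a median of 0.12. Of 32 G2/M and mitosis genes 9 were higher and 0 lower, with 17 above, 0 below and a median of 0.09. Over all genes tested, 20.2% lay above in this way and 19.4% below, and 756 of 16382 were higher and 751 lower unadjusted. MKI67, the proliferation marker Ki-67, stood at 1469 and 1349 CPM at 48 h and 1615 and 2026 CPM at 96 h (log2 fold change 0.37, SE 0.096, edgeR adjusted p = 0.229). UBE2C, a ubiquitin-conjugating enzyme used at mitotic exit, stood at 74.2 and 75.4 CPM and then 90.2 and 110 CPM (0.41, SE 0.107, adjusted p = 0.231). FOXM1, a transcription factor of G2/M genes, and the mitotic kinase gene PLK1 gave 0.40 and 0.37 (0.331 and 0.339). In the libraries themselves the G1/S median, relative to its 48 h mean, was 0.35 and 0.43 in DMSO, 0.23 and 0.19 at 24 h, and 0.13 and 0.10 at 96 h. For G2/M it was 0.35 and 0.36 in DMSO, 0.53 and 0.43 at 24 h, and 0.10 and 0.08 at 96 h. Both lists were thus lower at 96 h than in DMSO. With independent filtering off DESeq2 called 0 of either list. With it on, 32 of the G1/S and 25 of the G2/M genes had no adjusted p, and 1 G2/M gene was called higher. The GC offset called 0 and 2. Without replicate 2 of 96 h the log2 fold change was 0.20 for MKI67 and 0.27 for UBE2C (adjusted p = 0.779 and 0.799).

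Subunits of the targeted complex were followed as well. BRD9 (ENSG00000028310) stood at 91.5 and 93.9 CPM at 48 h and 88.0 and 89.0 CPM at 96 h, a log2 fold change of -0.07 (95% interval -0.25 to 0.12, edgeR adjusted p = 0.834). BICRA stood at 39.0 and 37.4 CPM and then 44.4 and 54.3 CPM (0.36, 95% interval 0.09 to 0.63, adjusted p = 0.426), and differed by 0.22 without replicate 2 of 96 h (0.898). BICRAL differed by 0.04 (0.91). SS18 stood at 225 and 228 CPM and then 244 and 260 CPM (0.15, adjusted p = 0.596), and SSX1 at 47.6 and 49.1 CPM and then 57.1 and 55.8 CPM (0.22, adjusted p = 0.511). Of 8 tested ncBAF genes 0 were called, with 2 higher and 0 lower unadjusted. Of 19 tested canonical BAF and PBAF subunits 0 were called, with 6 higher and 0 lower unadjusted and a median of 0.12. Over all 16382 genes tested, 756 were higher and 751 lower unadjusted. DPF1, a subunit typical of neuronal BAF, stood at 6.80 and 6.77 CPM at 48 h and 11.1 and 13.3 CPM at 96 h (log2 fold change 0.83, SE 0.184, edgeR adjusted p = 0.181).

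**Figure D4:**
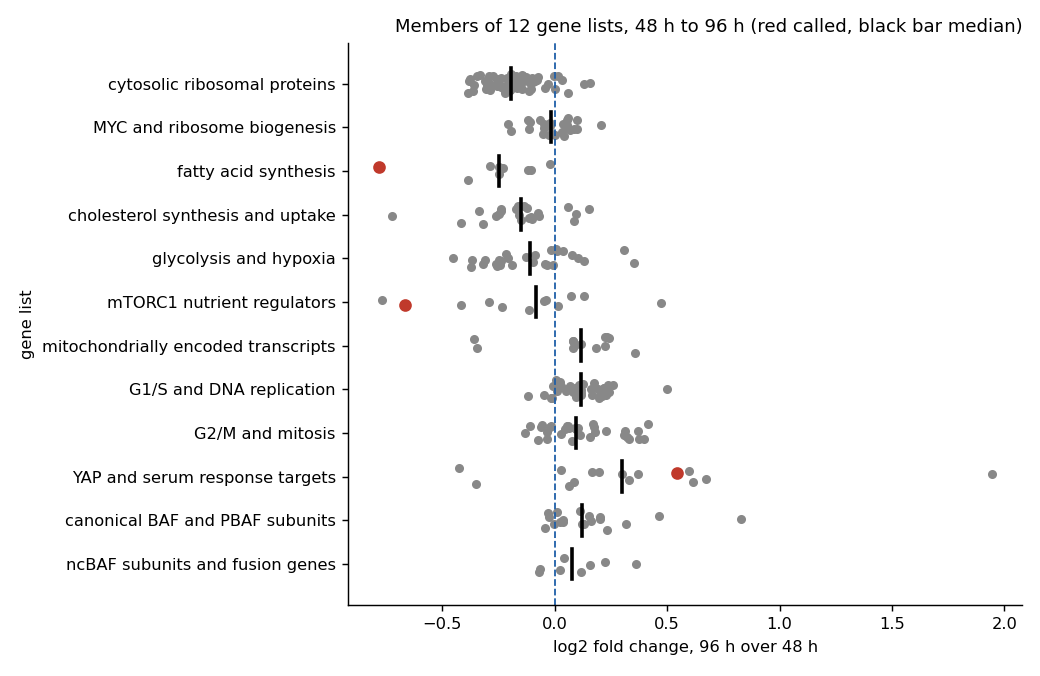
Log2 fold change from 48 h to 96 h (horizontal axis) of each tested member of 12 gene lists (vertical axis); each dot is a gene, red dots are called genes and black bars list medians. Red dots appear in 3 of the lists shown, 1 each, and the medians lie between -0.25 for fatty acid synthesis and 0.30 for YAP and serum response targets.

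Over all 42 lists, 41 had a tested member and 5 had a called one, each with 1 call. The list of glycolysis and hypoxia genes gave 0 calls in 28 tested, with 1 higher and 9 lower unadjusted, against 756 and 751 of all 16382 genes tested. Its median was -0.11 (-0.19 without replicate 2 of 48 h and -0.18 without replicate 2 of 96 h). PDK1, the kinase that restrains pyruvate dehydrogenase, gave the smallest p of that list (log2 fold change -0.46, edgeR adjusted p = 0.308). Heat shock, Wnt and MHC class I genes gave 0 members past an unadjusted p of 0.05 in either direction. Members of these lists were grouped by pathway name, and some lists share genes. The lists were drawn up with earlier results of these data known, so their counts and medians describe these genes and are not independent support for a pathway.

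The late step was then set against the early step from 12 h to 24 h, which shares no library with it, by testing the difference of the 2 steps in the same fit. They cover 48 h and 12 h of exposure, so sizes per hour are not compared. SCD was the one gene called, 0 genes being higher (0%) and 1 lower (0.0061%). From 12 h to 24 h SCD differed by 0.39 on the log2 scale (SE 0.094, edgeR adjusted p = 0.999), and the late step minus the early step was -1.17 (SE 0.133, adjusted p = 0.000109). For the other called genes the difference of steps was -0.95 for NEAT1 (adjusted p = 0.0805), 0.78 for AMOTL2 (0.0622), -0.84 for RRAGD (0.121), 1.45 for CYFIP2 (0.706) and 0.54 for CDH23 (0.81). These 5 genes were called between 48 h and 96 h in the fit of all libraries, but those calls were lost under some alternatives. A difference from the early step was not established for them.

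The response to the first 24 h of treatment, 24 h against DMSO, also shares no library with the late step, and edgeR called 220 genes higher (1.34%) and 369 lower (2.25%) in it. Scaled by library size alone, these became 301 and 205, so the balance of higher and lower calls at 24 h depends on the scaling. SCD was lower at 24 h than in DMSO (log2 fold change -0.45, SE 0.094, edgeR adjusted p = 0.00716). The other 5 genes did not pass the test at 24 h. Their differences were 0.24 for RRAGD (adjusted p = 0.283), 0.10 for NEAT1 (0.766), -0.21 for CDH23 (0.421), 0.16 for AMOTL2 (0.456) and 0.46 for CYFIP2 (0.536).

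Several genes not called in the late step had been called at 24 h against DMSO, and they were chosen after their values were seen. SIM2, a transcription factor of the bHLH-PAS family, stood at 63.3 and 71.3 CPM in DMSO, 37.5 and 33.3 CPM at 48 h and 24.4 and 20.7 CPM at 96 h. Its log2 fold change was -0.74 at 24 h (edgeR adjusted p = 0.000351) and -0.64 from 48 h to 96 h (0.0793). DDIT4 fell at 24 h by 1.09 on the log2 scale (adjusted p = 8.87e-05). BCAT1, which transaminates branched-chain amino acids, stood at 38.4 and 37.3 CPM at 48 h and 27.4 and 25.1 CPM at 96 h, with -0.62 at 24 h (0.00287) and -0.52 in the late step (0.202). PDGFRA, a receptor tyrosine kinase, gave -0.49 at 24 h (0.00841) and -0.47 in the late step (0.202). In the last 3 genes too, both 96 h libraries lay below both 48 h libraries.

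Other genes that were not called had higher values at 96 h. RELN, which encodes the secreted glycoprotein reelin, stood at 23.7 and 20.6 CPM in DMSO, 43.3 and 48.5 CPM at 48 h and 62.0 and 73.8 CPM at 96 h (late log2 fold change 0.56, SE 0.112, edgeR adjusted p = 0.0793). It rose at 24 h against DMSO (0.85, adjusted p = 0.000208). MUC6, a gel-forming mucin, stood at 205 and 222 CPM in DMSO, 611 and 578 CPM at 48 h and 713 and 903 CPM at 96 h (late 0.44, adjusted p = 0.202, and 0.26 without replicate 2 of 96 h, adjusted p = 0.778). It too rose at 24 h (0.62, adjusted p = 0.00163). PRR36 stood at 11.8 and 8.0 CPM at 48 h and 15.2 and 23.1 CPM at 96 h (late 0.92, SE 0.207, adjusted p = 0.188), and its 24 h difference of 0.63 did not pass (0.275). MATN2, a matrix protein, gave 0.62 and BRINP2 0.50 in the late step (both adjusted p = 0.202), and both had risen at 24 h (0.0419 and 0.00221). CXCL12, a chemokine, stood at 243 and 221 CPM and then 309 and 309 CPM (0.41, SE 0.088, adjusted p = 0.133), and its 24 h difference was -0.08 (0.71).

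**Figure D5:**
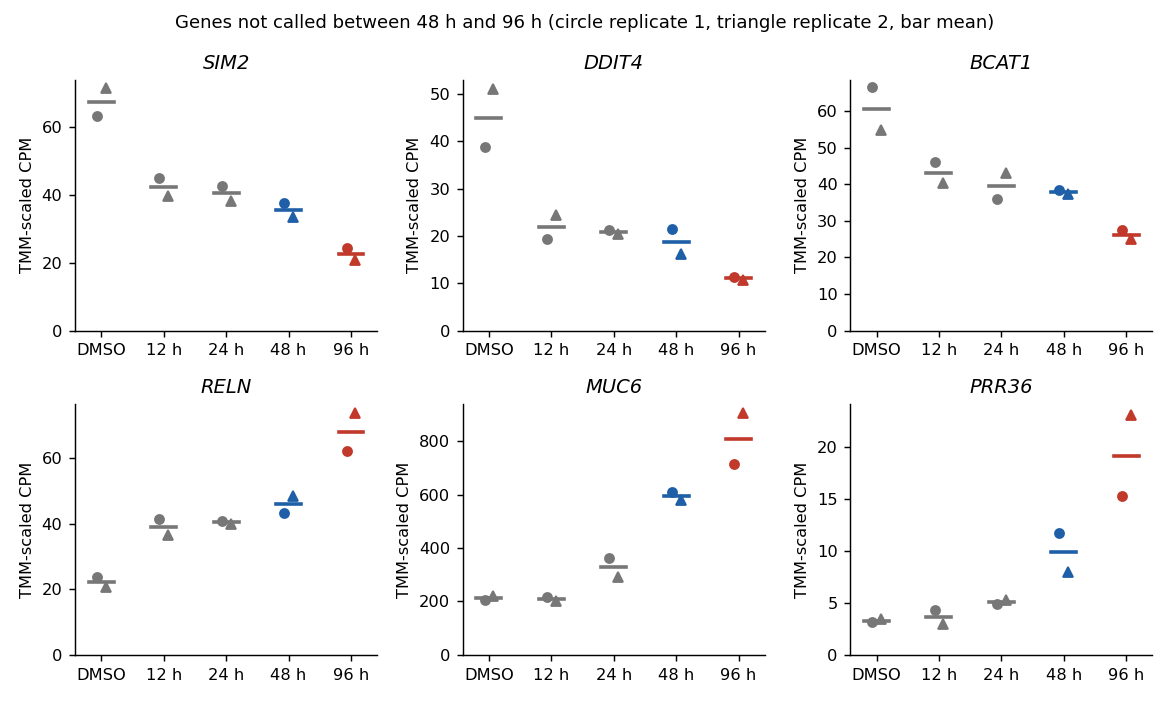
TMM-scaled CPM (vertical axis, from 0) of 6 genes not called between 48 h and 96 h, in each library by group (horizontal axis); circles are replicate 1, triangles replicate 2 and bars means of 2. The 96 h libraries (red) are below all others in SIM2, DDIT4 and BCAT1 and above all others in RELN, MUC6 and PRR36.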

How the data were processed

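RNA was measured in 10 HS-SY-II libraries, 2 per group. Per the labels' protocols these were stranded poly(A) libraries read as paired ends. The deposited table holds raw counts per gene, as whole numbers with no normalization. The submitters' processing notes name bcl2fastq, FastQC, Trim Galore, cutadapt, STAR, featureCounts and GRCh38, with no versions. Symbols matched 62541 of 63140 identifiers, and gene positions came from GENCODE annotation of GRCh38, which may not be the release used for counting.

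Genes kept by filterByExpr (16382) were fitted in edgeR 4.0.16 under R 4.3.3, with TMM scaling, 1 mean per group over all 10 libraries and a quasi-likelihood F test with 5 residual and 18.5 prior degrees of freedom. All groups thus shared 1 estimate of spread, with a common biological coefficient of variation of 7.17%. Replicates differed more at 96 h (median 0.18 on the log2 scale) than at 12 h, 24 h or 48 h (0.12 to 0.14). The shared estimate need not fit the 96 h pair, and SEs and p-values of the late step may be too small. Adjusted p-values are Benjamini-Hochberg over all genes tested in a comparison. SE is the log2 fold change over the square root of F. CPM are TMM-scaled, and list medians per library use log2 CPM with a prior count of 2. Alternatives were DESeq2 1.42.0, limma-voom (limma 3.58.1), other scalings and filters, a lowess GC offset (span 0.3), a replicate term, the compared groups alone and each library left out. Scripts were tested on simulated data. DESeq2 without independent filtering was added after its first result was seen.

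Named genes are the called genes, the called or most abundant members of the lists, and BRD9, BICRA, BICRAL, SS18 and SSX1. Other genes that are named were chosen after their values were seen. The comparison and the gene lists were chosen with earlier results of these data known.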

Additional observations from a re-analysis of the deposited data

Results flagged for a closer look

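SCD stood out because its change from 48 h to 96 h differed from its change from 12 h to 24 h when the difference itself was tested. The late step minus the early step was -1.17 on the log2 scale (SE 0.133, edgeR adjusted p = 0.000109). The 2 steps share no library but cover 48 h and 12 h of exposure.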

How the results depend on the processing

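The smallest change called from 48 h to 96 h, with 2 libraries a side, was 0.54 on the log2 scale. That is not a detection limit of the fit, since RPS6 was called at 24 h against DMSO with a log2 fold change of -0.32 (edgeR adjusted p = 0.0271). A gene that was not called may still have changed. The 6 called genes kept their direction in all 138 values under alternatives and their call in 82. In 52 they lost it, and in 4 DESeq2 gave no adjusted p; the cause was not tested. For 96 h against 48 h (3 higher, 3 lower), the calls were 0 and 1 with library size only, with a filter of 5 CPM in 2 libraries, with the replicate block and with limma-voom. They were 55 and 32 with no filter, 20 and 28 with the replicate block and GC offset, 30 and 31 with the GC offset, 15 and 25 with DESeq2, and 6 and 6 in a fit of only the groups compared. Leaving out 1 library at a time gave 0 to 78 higher and 1 to 40 lower. In the tests where a group kept 1 library, it was assumed to vary like the others. The counts were 9 and 10 without replicate 1 of DMSO and 26 and 19 without replicate 2, against 0 and 1 without either library of 12 h and 0 and 3 without either of 24 h. They were 0 and 4 without replicate 1 of 48 h, 0 and 1 without replicate 2 of 48 h, 78 and 40 without replicate 1 of 96 h and 0 and 5 without its replicate 2.

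For the late step against the early step (0 higher, 1 lower), the calls were 1 and 2 with library size only, DESeq2, DESeq2 without independent filtering and limma-voom. They were 1 and 3 without mitochondrial genes, 6 and 21 with no filter, 0 and 2 with the stricter filter, 5 and 11 with the GC offset alone or with the replicate block, and 2 and 7 with only the groups compared. Leaving out 1 library gave 0 to 11 higher and 1 to 9 lower. For 24 h against DMSO (220 and 369) they were 556 and 790 with the replicate block and GC offset, 583 and 812 with the GC offset, and 108 and 180 with only the groups compared. Library size only gave 205 lower, and DESeq2 gave 130 higher, or 118 without independent filtering. Leaving out 1 library gave 46 to 321 higher and 67 to 636 lower, both lowest values without replicate 2 of 24 h.

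Deviations of same-numbered libraries correlated weakly between groups (-0.123 to 0.186), so the numbers were not taken to pair the cultures. The highest value was for DMSO with 96 h. In both of those groups GC-rich transcripts were higher in replicate 2 (Spearman correlation 0.571 and 0.289). A fit with the replicate block gave 0 higher and 1 lower at 96 h against 48 h, and 0 and 1 for the difference of steps.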
